A study of Mus musculus with 6 samples.

Results

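The collagen genes of mouse colon epithelium that was not sorted for cell type were compared between mice lacking the Wnt co-activators BCL9 and BCL9L in the intestine and wild-type mice. The members were all genes whose single symbol in the annotation of the Affymetrix Mouse Genome 430 2.0 array reads Col, a number, a and a number. The rule used no measured value, and it found 42 genes among 18194, read by 82 of the 45101 probe sets of the table. A probe set is a small group of short probes against one transcript. Each gene was represented by its brightest probe set, the one with the highest mean over the 6 arrays, and 27 members had more than 1 probe set. By the class of protein they encode, 11 members were fibrillar, 9 were basement membrane collagens and 22 belonged to other types.

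There were 3 arrays of vil-Cre-Bcl9-/-/Bcl9l-/- epithelium (knockout 1, 2 and 3, from 3, 2 and 2 pooled mice) and 3 of wild-type epithelium (wild type 4, 5 and 6, from 3 pooled mice each). All mice were 12 weeks old, of a mixed 129SvEv/C57BL/6/DBA/2 background, and had healthy colons. The villin promoter directs Cre to the intestinal epithelium, so the connective tissue in a pool was not itself recombined by design, and the labels name Cre in the knockouts alone, so that Cre and the loss of both genes cannot be told apart. Epithelium was loosened in 3 mM EDTA and shaken off the muscle. Each array is its own pool, and p-values measure the spread between pools.

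Collagens are secreted or membrane proteins whose alpha chains wind around each other in a helix built on a repeat with glycine at every turn. In the gut wall the fibrillar types are made mainly by fibroblasts and smooth muscle of the lamina propria and deeper layers. Type IV collagen forms the sheet on which the epithelium sits, and most of its chains in the intestine also come from mesenchymal cells.

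All values are log2 expression values. The arrays read as epithelium. The adhesion molecule Epcam lay between 13.50 and 13.72, and all 12 measured epithelial markers were above the median gene. Wild type 6 stood apart from the other arrays, at 82.5 on the leading principal component (40.2% of the variance) against -34.5 to 9.56 elsewhere. The targeted genes differed by 0.11 for Bcl9 (limma adjusted p = 0.977) and 0.22 for Bcl9l (limma adjusted p = 0.954), but whether their probes lie in the deleted parts was not known, so this checks no label. Collagen signals were low. The mean of 40 members lay below 6.54, the median over all genes, and the exceptions were Col16a1 and Col20a1. This describes signal strength and ranks no transcript amounts. No detection call was used, and whether a dim reading exceeds background is unknown here.

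No collagen gene passed the test. limma, fitted over all 18194 genes, called 0 of 42 members at an adjusted p under 0.05, and 0% of all genes. In that fit 1 member had an unadjusted p under 0.05 and was lower in the knockouts, where 2.02% of all genes did so, and 0 members were higher at that level, where 2.69% of all genes were. The difference (knockout minus wild type throughout) was below 0 for 22 members, or 52.4%, against 47.8% of all genes. Its median was -0.033 over the members and 0.0096 over all genes. The median 95% interval of a member reached 0.35 to either side of its difference, close to the 0.36 of all genes.

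**Figure D1:**
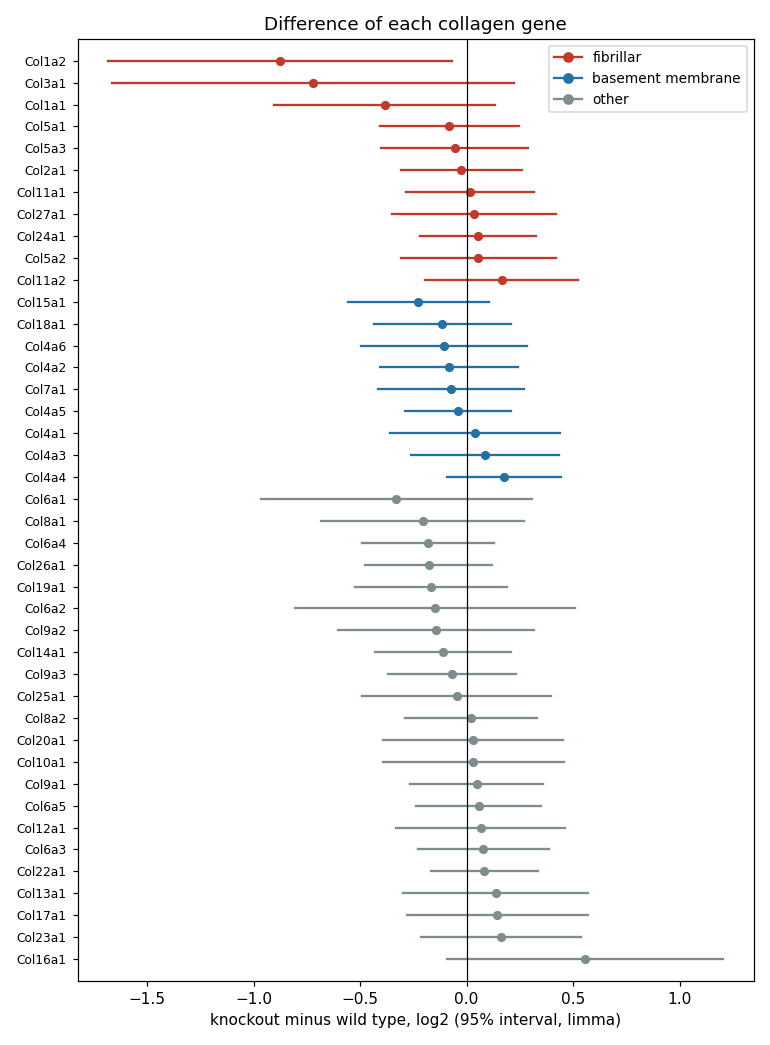
The plot shows for each of the 42 collagen genes the log2 difference, knockout minus wild type, with limma's 95% interval, coloured by class. Col1a2 (-0.87) and Col3a1 (-0.72) lie farthest to the left and Col16a1 (0.55) farthest to the right, and the interval of Col1a2 alone leaves out 0.

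The groups did not overlap for 3 members, or 7.14%, all lower in the knockouts, against 4.83% of all genes. These were Col1a1, Col1a2 and Col3a1, the chains of the interstitial type I and type III collagens. No member was higher without overlap, against 5.5% of all genes. By class, these 3 were 3 of 11 fibrillar genes, and 0 of 9 basement membrane and 0 of 22 other genes had separate groups. A count of 3 in 42 is near the background, and setting the interstitial genes apart as a group of their own was done after their values were seen.

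The promoters of Col1a2 and Col3a1 are shown because both genes, whose products share fibrils, read lower in the knockouts. Col1a1 read lower too, but its promoter is not shown. Each run is the 250 bases before the start annotated by RefSeq on GRCm38.p6, read 5′ to 3′ on the plus strand, on which both Col1a2 and Col3a1 lie. The Col1a2 run spans chr6:4505368-4505617 and the Col3a1 run chr1:45311288-45311537. Capitals mark 3 motifs that were searched on both strands. These were the CCAAT box, the TATA box written as TATAAA, and the GC box written as GGGCGG.
Col1a2: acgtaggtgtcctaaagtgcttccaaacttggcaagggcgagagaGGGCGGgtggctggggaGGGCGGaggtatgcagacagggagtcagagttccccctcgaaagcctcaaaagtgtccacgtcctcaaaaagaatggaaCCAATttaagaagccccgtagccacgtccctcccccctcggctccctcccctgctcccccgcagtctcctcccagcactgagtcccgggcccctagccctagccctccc
Col3a1: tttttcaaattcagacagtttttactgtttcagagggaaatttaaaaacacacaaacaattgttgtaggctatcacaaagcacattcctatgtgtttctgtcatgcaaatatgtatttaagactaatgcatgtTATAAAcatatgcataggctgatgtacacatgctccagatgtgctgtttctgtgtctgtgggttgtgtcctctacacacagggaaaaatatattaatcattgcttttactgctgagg

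The runs had no motif of the 3 in common. That of Col1a2 held GGGCGG beginning 205 and 188 bases before the start and CCAAT 109 bases before it, in a run with 62% G or C. Col3a1 held TATAAA 117 bases before its start, in a run with 35.2% G or C. The run of Col4a2, a gene whose groups overlapped, is not shown and also held GGGCGG and CCAAT. RefSeq windows were found for 33 of the 42 members, 36 windows in all. Among these 36, CCAAT on either strand was in 36.1% (33.8% of all 32851 windows), TATAAA in 13.9% (12.4%) and GGGCGG in 58.3% (32.7%). The motifs do not overlap in the runs shown, and a match is a description of letters, not of a bound site.

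Fibrillar collagens polymerise into the fibrils that give tissue its tensile strength. Col1a2, the alpha 2 chain of type I collagen, read 5.61, 5.01 and 5.73 in knockouts 1, 2 and 3 and 5.91, 6.01 and 7.05 in wild types 4, 5 and 6. Wild type 6 was the highest array and knockout 2 the lowest, and the groups were 0.18 apart at their nearest. The means were 5.45 ± 0.39 and 6.32 ± 0.63 (SD, n = 3 each), 1.83-fold lower in the knockouts (-0.87, 95% interval -1.68 to -0.067, limma adjusted p = 0.953).

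Col1a1, which encodes the partner chain of type I collagen, read 5.18, 5.07 and 5.23 in the knockouts and 5.31, 5.26 and 6.05 in wild type. Its groups were only 0.039 apart, between knockout 3 and wild type 5, and wild type 6 alone was high. The means of 5.16 ± 0.08 and 5.54 ± 0.44 (SD, n = 3 each) differed by -0.39 (95% interval -0.91 to 0.13, limma adjusted p = 0.953). Col3a1, the single chain type of collagen III, which forms fine reticular fibres with type I, read 5.69, 5.27 and 5.81 in the knockouts and 5.82, 5.85 and 7.27 in wild type. Here knockout 3 and wild type 4 were 0.00091 apart, so the lack of overlap rests on almost nothing. The means of 5.59 ± 0.29 and 6.31 ± 0.83 (SD, n = 3 each) differed by -0.72 (95% interval -1.67 to 0.22, limma adjusted p = 0.953).

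**Figure D2:**
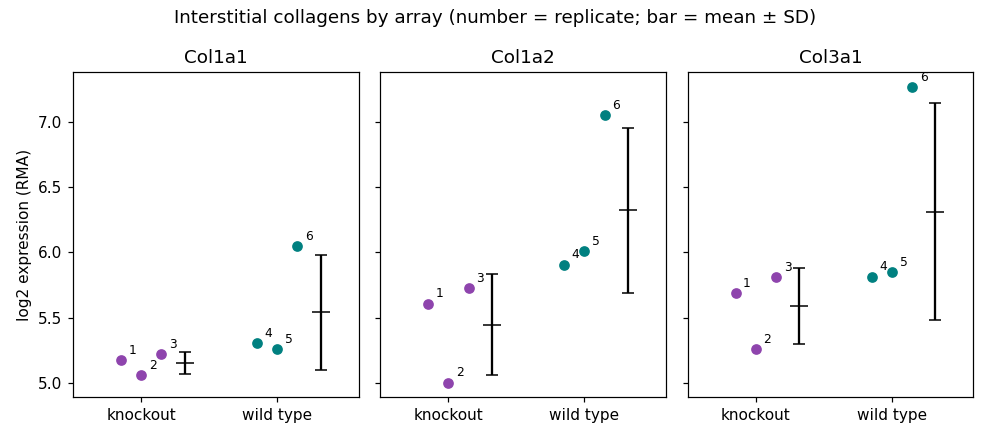
Points give the log2 value of Col1a1, Col1a2 and Col3a1 in each array, numbered by replicate, and the black bars give the mean ± SD of each group of 3. Wild type 6 is the highest array for each gene, and the other wild-type arrays lie just above the knockouts.

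Wild type 6 carried much of these differences. It exceeded the mean of wild types 4 and 5 by 0.76 for Col1a1, 1.09 for Col1a2 and 1.43 for Col3a1. Without it the differences were -0.13 for Col1a1, -0.51 for Col1a2 and -0.24 for Col3a1, all below 0 and none called (limma adjusted p = 0.825 to 0.895). In that fit 0 of 42 members passed, against 0.0165% of all genes. At an unadjusted p under 0.05 the 1 member lower was Col9a2 (-0.35), against 3.6% of all genes, and Col1a2 was no longer among them. With 5 arrays the groups separated more readily by construction, with 9 of 42 members lower without overlap against 13.3% of all genes.

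The other 4 probe sets of the interstitial genes had differences below 0 as well, at dimmer signals, and probe sets named in addition to the brightest were chosen after their values were seen. A second Col1a2 probe set read 3.17, 3.05 and 3.15 in the knockouts and 3.56, 3.72 and 3.55 in wild type, with no overlap and and here wild type 6 was the lowest of its group. It differed by -0.49 (95% interval -0.75 to -0.22, limma adjusted p = 0.991 over all probe sets). The third Col1a2 probe set differed by -0.11, and the second of Col3a1 by -0.092. The second Col1a1 probe set read 4.30, 4.32 and 5.18 in the knockouts and 5.13, 4.50 and 5.73 in wild type. Its groups overlapped, and the difference was -0.52.

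The remaining 8 fibrillar genes had a median of 0.026, with 3 below and 5 above 0. Type V collagen, which starts and limits the thickness of type I fibrils, is represented by 3 of them. Col5a1 read 5.45, 5.02 and 5.21 in the knockouts and 5.22, 5.35 and 5.35 in wild type, so that the groups overlapped, with a difference of -0.08. Col5a2 read 3.46, 3.50 and 3.81 against 3.72, 3.54 and 3.34, a difference of 0.055 with its lowest value in wild type 6. The third chain gene, Col5a3, differed by -0.057.

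Col11a2, a chain of the cartilage collagen XI, read 4.25, 4.09 and 4.10 in the knockouts and 4.25, 3.95 and 3.75 in wild type. It was the fibrillar gene with the greatest difference above 0 (0.17, 95% interval -0.19 to 0.52), and again wild type 6 was its lowest array. Col2a1, of cartilage, differed by -0.026 and Col11a1 by 0.017. The minor fibrillar genes Col24a1 and Col27a1 differed by 0.053 and 0.034. Over the whole fibrillar class the median was -0.026, which hides the interstitial genes because they are only 3 of 11.

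Basement membrane collagens overlapped between the groups in every gene at its brightest probe set. Their median was -0.073, with 6 of 9 below 0 (47.8% of all genes were), and 0.0013 without wild type 6, when 4 of 9 were below 0. Restricted to the 6 type IV chains it was -0.0012. Col4a1 and Col4a2, the ubiquitous type IV chains found in nearly all basement membranes, overlapped between the groups at their brightest probe sets. Col4a1 gave 4.86, 5.14 and 5.47 in the knockouts, which spans the 5.04, 5.20 and 5.12 of wild type, for a difference of 0.037 (95% interval -0.36 to 0.44). Col4a2 gave 4.29, 4.18 and 4.41 against 4.17, 4.41 and 4.55, a difference of -0.08 (95% interval -0.41 to 0.24).

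The other type IV chains build the networks of more specialised membranes. Col4a4 read 4.35, 4.46 and 4.48 in the knockouts and 4.13, 4.27 and 4.36 in wild type, where knockout 1 lay just below wild type 6 (difference 0.17). Its dimmer probe sets differed the other way, by -0.18 and -0.075, and their groups overlapped. Col4a5 read 2.71, 2.76 and 2.90 against 2.84, 2.81 and 2.84, at the dim end of the members (-0.04). Col4a6 read 3.41, 3.55 and 3.26 against 3.25, 3.50 and 3.78 (-0.11), with wild type 6 highest. Col4a3 differed by 0.087.

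Next to the type IV sheet lie collagens that tie it to its surroundings. Col15a1, a multiplexin that links basement membranes to nearby fibrils, read 4.74, 4.75 and 4.89 in the knockouts and 4.84, 5.26 and 4.96 in wild type. It had the largest difference of the class (-0.23, 95% interval -0.56 to 0.10, limma adjusted p = 0.953), and -0.11 without wild type 5, its highest array. Col18a1, the multiplexin from which endostatin is released, read 6.16, 6.11 and 5.87 against 6.22, 6.28 and 5.99 (-0.11). Its groups overlapped, while its dimmer probe set, with a difference of -0.13, gave 4.81, 4.85 and 4.87 against 4.93, 5.09 and 4.90, with no overlap. Col7a1, of the anchoring fibrils, differed by -0.073.

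**Figure D3:**
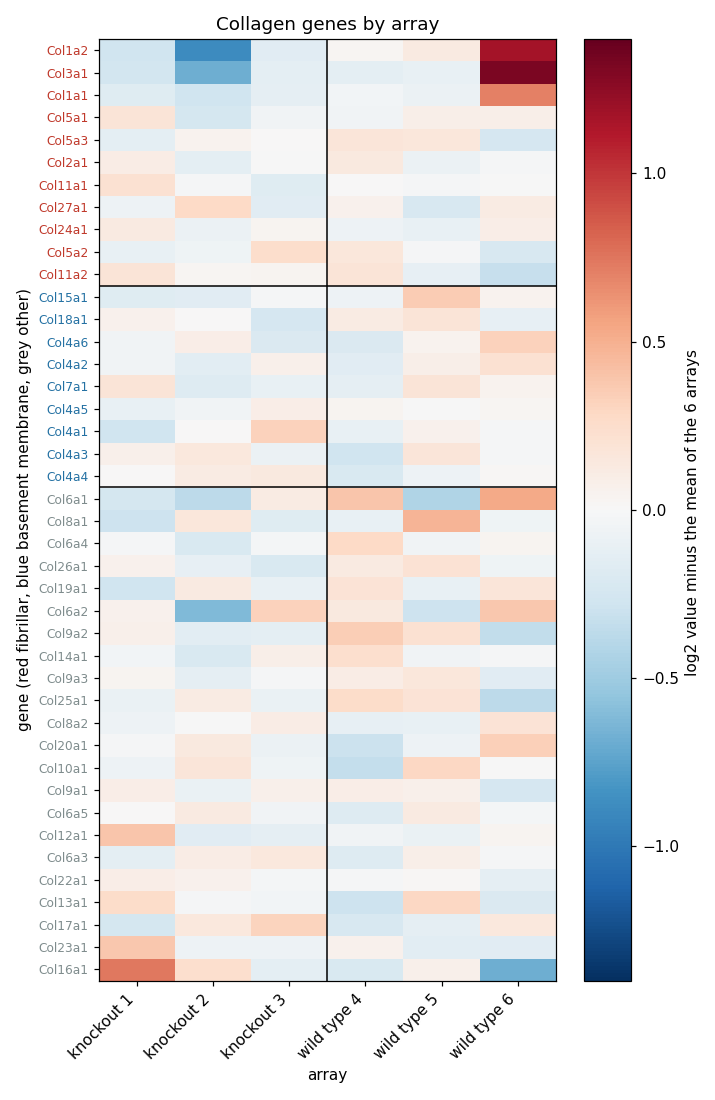
Each row is a collagen gene and each column an array, and the colour gives the log2 value minus the mean of that gene over the 6 arrays, with classes separated by black lines. Col1a2, Col3a1 and Col1a1 are darkest red in wild type 6, while wild type 6 is the highest array in 2 of 9 basement membrane and 4 of 22 other rows.

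The other collagens, which do not form striated fibrils or basement membrane sheets by themselves, had a median of 0.024, with 10 below and 12 above 0. Type VI collagen, made of beaded microfilaments found around most mesenchymal cells, is the group closest to types I and III in where it is made. Col6a1 read 4.30, 4.19 and 4.67 in the knockouts and 4.93, 4.13 and 5.08 in wild type, with wild type 5 the lowest of all 6 arrays. The difference was -0.33 (95% interval -0.97 to 0.31, limma adjusted p = 0.97), and it was -0.15 without wild type 6 and -0.62 without wild type 5. Col6a2 read 6.14, 5.46 and 6.40 against 6.22, 5.78 and 6.45, lowest in knockout 2 and highest in wild type 6 as for the interstitial genes, with a difference of -0.15. Col6a3 read 2.94, 3.18 and 3.22 against 2.89, 3.15 and 3.05, a dim signal with no such pattern (0.079). Col6a4 gave 3.82, 3.63 and 3.81 against 4.12, 3.79 and 3.88 (-0.18), and Col6a5 differed by 0.055.

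Collagens that decorate the surface of fibrils with interrupted helices were mixed. Col16a1, such a surface collagen, was the member with the greatest difference above 0. It read 7.44, 6.94 and 6.57 in the knockouts and 6.49, 6.78 and 6.02 in wild type, with knockout 3 below wild type 5. The means of 6.98 ± 0.44 and 6.43 ± 0.38 (SD, n = 3 each) differed by 0.55 (95% interval -0.09 to 1.20, limma adjusted p = 0.953), and by 0.33 without knockout 1 and 0.35 without wild type 6. Wild type 6 was its lowest array, while it was the highest for Col1a1, Col1a2 and Col3a1.

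Col12a1 and Col14a1 bind type I fibrils. Col12a1 read 5.12, 4.58 and 4.62 in the knockouts and 4.69, 4.64 and 4.78 in wild type (0.066), with knockout 1 alone high. Col14a1 read 4.35, 4.18 and 4.48 against 4.63, 4.34 and 4.38 (-0.11). Another Col14a1 probe set read 2.53, 2.61 and 2.39 against 3.00, 3.73 and 3.13, with no overlap (-0.78, 95% interval -1.27 to -0.29, limma adjusted p = 0.991 over all probe sets), and the third differed by -0.032. The probe sets of Col14a1 thus disagree in size, and the one that separates the groups is near the bottom of the signal range.

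Of the other fibril-associated genes, Col19a1 read 3.96, 4.36 and 4.13 in the knockouts and 4.43, 4.13 and 4.40 in wild type (-0.17). The differences of the cartilage collagen IX chains were 0.048 for Col9a1, -0.15 for Col9a2 and -0.068 for Col9a3. Col20a1 differed by 0.028 and Col22a1 by 0.083. Among the membrane-spanning collagens, Col17a1, which belongs to the hemidesmosomes that fasten epithelial cells to the basement membrane, read 4.11, 4.49 and 4.66 in the knockouts and 4.12, 4.22 and 4.49 in wild type. Its groups overlapped and its difference was 0.14. The membrane collagens Col13a1, Col23a1 and Col25a1 differed by 0.14, 0.16 and -0.047.

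Short-chain collagens that form hexagonal lattices gave small differences of -0.21 for Col8a1, 0.02 for Col8a2 and 0.032 for Col10a1. Col26a1 read 3.44, 3.27 and 3.17 in the knockouts and 3.50, 3.59 and 3.33 in wild type (-0.18, 95% interval -0.48 to 0.12). In 4 of these 22 genes wild type 6 was the highest array, as it was in 3 of the 11 fibrillar and 2 of the 9 basement membrane genes. That makes 9 of 42 members, or 21.4%, against 12.8% of all genes.

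Over all 82 probe sets, 0 passed over the table, as did 0% of its 45101 probe sets. At an unadjusted p under 0.05, 3 were lower, against 1.86% of all probe sets, and 2 were higher, against 2.29%. The 3 lower ones belonged to Col1a2, with 2, and Col14a1, and the higher ones to Col12a1 (0.35) and Col23a1 (0.26). Groups did not overlap for 9 lower probe sets, or 11.0%, against 4.78% of the table, and for 3 higher ones, or 3.66%, against 4.92%. Of the 9, 5 were fibrillar and all 5 belonged to Col1a1, Col1a2 or Col3a1. Col1a2 and Col3a1 each gave more than 1 of them. Probe sets of 1 gene read the same pools, so they are not separate observations. By gene, at the brightest probe set, the share was 7.14% against 4.83%. Among the 27 members with several probe sets, all had the same sign in 18, below 0 in 13 and above 0 in 5. The same count was not made over all genes, so no lean of the collagens can be read from it. Col4a1 was one of the 5 above 0. Its dimmer probe set gave 3.95, 3.81 and 5.14 in the knockouts and 3.81, 3.46 and 3.66 in wild type (0.66), where knockout 3 alone was high. It was among the 3 higher probe sets without overlap, but knockout 2 (3.8105) lay barely above wild type 4 (3.8099).

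**Figure D4:**
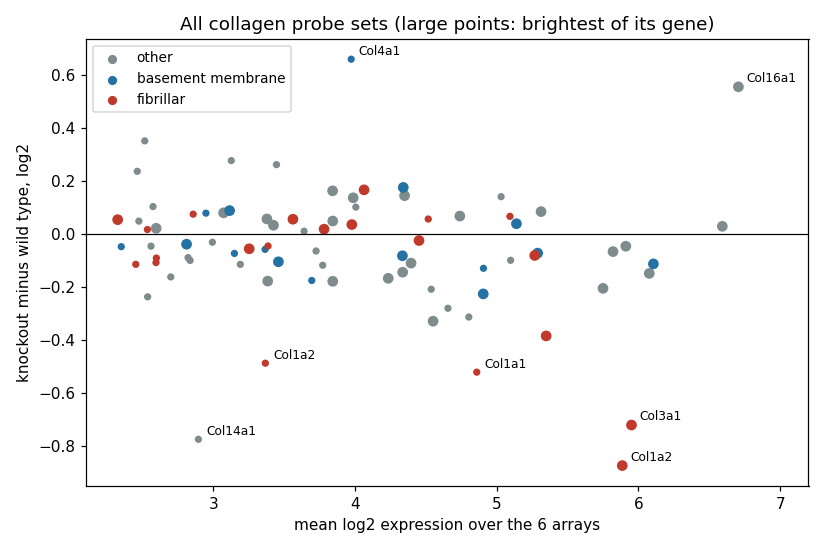
Each point is 1 of the 82 collagen probe sets, placed by its mean log2 value over the 6 arrays and its log2 difference, knockout minus wild type, with large points for the brightest probe set of each gene. Most points lie close to 0, and the lowest are those of Col1a2, Col14a1, Col3a1 and Col1a1.

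Genes of the wider collagen pathway were taken from lists. None of their members passed (0 in each of 6 lists). Their counts are to be read against all genes, of which 47.8% were below 0, 2.02% were lower and 2.69% higher at an unadjusted p under 0.05, and 4.83% were lower and 5.5% higher without overlap. Enzymes and chaperones that modify and fold the chains had a median of 0.058, with 7 of 19 below 0, and 2 were higher at an unadjusted p under 0.05. These were the lysyl hydroxylase Plod3 (0.37, SE 0.11) and P3h4 (0.55, SE 0.17), each without overlap between groups. The list's median was 0.031 without wild type 6. Next by p came the prolyl hydroxylase subunit P4ha1 (-0.20, SE 0.12). Genes for propeptide cleavage and cross-linking had a median of -0.032 (6 of 12 below 0), with Loxl3 at -0.33 (SE 0.14), Tll1 at -0.24 (SE 0.14, and -0.15 without wild type 6) and the procollagen protease Bmp1 at -0.17 (SE 0.11).

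Matrix proteins that accompany fibrils were the list whose median lay farthest from 0, at -0.29 with 11 of 13 below 0. It was -0.095 without wild type 6. The fibril-binding proteoglycan Dcn read 7.30, 6.29 and 8.03 in the knockouts and 7.71, 8.38 and 8.99 in wild type. Knockout 3 lay above wild type 4, and the difference was -1.16 (SE 0.48). Postn differed by -0.38 (SE 0.17), and by -0.24 without wild type 6. Dpt differed by -1.31 (SE 0.70), with wild type 5 below every knockout, and by -0.86 without wild type 6.

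Collagen receptors had a median of 0.049, with 3 of 10 below 0, which turned to -0.040 with 6 of 10 below 0 without wild type 6. The integrin subunits Itga1 (0.37, SE 0.23, and 0.11 without wild type 6) and Itga2 (0.29, SE 0.19) and the receptor kinase Ddr2 (-0.15, SE 0.17) had the smallest p. Collagen-degrading enzymes and their inhibitors had a median of 0.05, with 5 of 14 below 0, and 1 was lower and 1 higher at an unadjusted p under 0.05. The inhibitor Timp2 read 5.71, 5.63 and 5.83 in the knockouts and 6.32, 7.24 and 7.96 in wild type, a difference of -1.45 (SE 0.38) with no overlap. Mmp7, the matrilysin gene, differed by 0.59 (SE 0.18) without overlap, and the protease Ctsk by -0.22 (SE 0.13).

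Other basement membrane components, among them laminins and nidogens, had a median of -0.018, with 10 of 19 below 0 and 2 lower at an unadjusted p under 0.05. Lama5, the laminin chain of the mature intestinal basement membrane, read 6.42, 6.52 and 6.60 in the knockouts and 7.16, 6.93 and 6.82 in wild type, with wild type 6 nearest to the knockouts. It differed by -0.46 (SE 0.13). Nid2 differed by -0.31 (SE 0.13) and Smoc1 by 0.29 (SE 0.12).

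Markers of other cells moved with the interstitial collagens in part. Taking each gene relative to its mean over the 6 arrays, the median of Col1a1, Col1a2 and Col3a1 was 1.17 in wild type 6, -0.039 and -0.084 in wild types 4 and 5, and -0.26, -0.69 and -0.14 in knockouts 1, 2 and 3. The same measure over 19 fibroblast markers other than collagens was also highest in wild type 6 (0.16) and lowest in knockout 2 (-0.35), with -0.099 to 0.037 elsewhere. Unlike for the 3 collagens, wild type 4 (-0.099) lay below knockout 1 (-0.0065) and knockout 3 (0.0021). Of these 19 markers 15 were below 0 (47.8% of all genes were), with a median difference of -0.13, and 1, Dcn, was lower at an unadjusted p under 0.05 (2.02% of all genes). Dcn, Dpt, Fn1 and Lum are also in the list of matrix proteins that accompany fibrils, so the lists are not separate observations. Without wild type 6 the median of the 19 fibroblast markers was -0.069, with 12 below 0. Their signal summed on the linear scale, 4139 to 4331 for the knockouts, was 4369 to 5864 for wild type, but 1 gene, Gsn, made up 53.2% to 78.2% of each sum. The other 18 summed to 908 to 1484 and 1240.4 to 2742, and the groups overlapped. Single markers differed in this. Pdgfra lay between 3.45 and 3.70 in all arrays, whereas Vim was 9.83 in wild type 6 and 7.87 to 8.71 elsewhere. Vim differed by -0.47, and by 0.077 without wild type 6, while Pdgfrb differed by 0.10. The log2 scale has no 0, so no marker can be called absent.

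Lymphoid and myeloid markers had their highest list level in wild type 6. The B and plasma cell list (12 of 12 below 0, median -0.99) stood at 2.63 in wild type 6 and -0.73 to -0.25 elsewhere, and its sum was 310.2 to 666 for knockout and 323 to 4381 for wild-type arrays. Of each sum 18.7% to 64.3% came from Jchain. The other 11 genes summed to 217 to 238 and 254.5 to 3559, without overlap. Leaving out wild type 6, the median of the B and plasma cell list was -0.14, with 8 of 12 below 0. Over all 6 arrays 3 of the 12, Derl3, Pou2af1 and Pax5, were lower without overlap (4.83% of all genes). At an unadjusted p under 0.05, 0 of them were lower. The T cell list (8 of 8 below 0, median -0.40) stood at 0.98 against -0.45 to -0.077, with summed signals of 231 to 307 and 274 to 628. Without wild type 6 its median was -0.079, with 4 of 8 below 0. Zap70 alone of the 8 was lower at an unadjusted p under 0.05 (2.02% of all genes) and without overlap. It differed by -0.31, and wild type 6 was the lowest of its wild-type arrays. For macrophages (6 of 9 below 0, median -0.086) the levels were 0.83 and -0.52 to 0.003, with sums of 616 to 1667 and 438 to 3043, and without wild type 6 the median turned to 0.30, with 3 of 9 below 0. The sums of the T cell and macrophage lists, each without its brightest gene, overlapped between the groups. Fewer cells of a type and less RNA per cell cannot be told apart in such pools. The part of these cells in the collagen differences was not tested.

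Smooth muscle markers overlapped between groups in their list level (6 of 10 below 0, median -0.18). Their level was 0.19 in wild type 6 and 0.18 in wild type 4, and lowest in wild type 5 (-0.26), and their sums were 1237 to 1633 and 1677 to 1924. Of each sum 58.3% to 74.3% came from Mylk, and without it the sums, 516 to 539 and 448 to 704, overlapped. The median was -0.082 without wild type 6. Cnn1 alone of the 10 was lower at an unadjusted p under 0.05 (-0.52, against 2.02% of all genes), and its groups overlapped. Endothelial markers (8 of 11 below 0, median -0.16) had list levels between -0.10 and 0.093 in every array. Their sums were 225 to 246 and 231 to 253. Of the 11, 3 were lower without overlap (4.83% of all genes), Pecam1, Tek and Tie1, and 0 were higher. The 3 markers above 0 were Vwf (0.68, and 0.36 without wild type 6), Esam (0.20) and Cldn5 (0.053). Vwf had its lowest value, 4.50, in wild type 6, and its groups overlapped. Pecam1 alone was lower at an unadjusted p under 0.05. It read 3.82, 4.18 and 4.45 in the knockouts and 4.58, 5.05 and 5.82 in wild type. Without wild type 6 Pecam1 differed by -0.67, and the list median was -0.11, with 9 of 11 below 0. Markers of enteric neurons and glia (5 of 7 below 0, median -0.084) lay between -0.13 and 0.19. Their sums were 198 to 214 and 196 to 218, and the median was -0.20 without wild type 6. Ret alone of the 7 was lower without overlap (-0.24). Epithelial markers (4 of 12 below 0, median 0.031) stayed within -0.041 and 0.033, with sums of 85189 to 88805 and 86197 to 87514. The part of each of these in the collagen values was not tested.

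**Figure D5:**
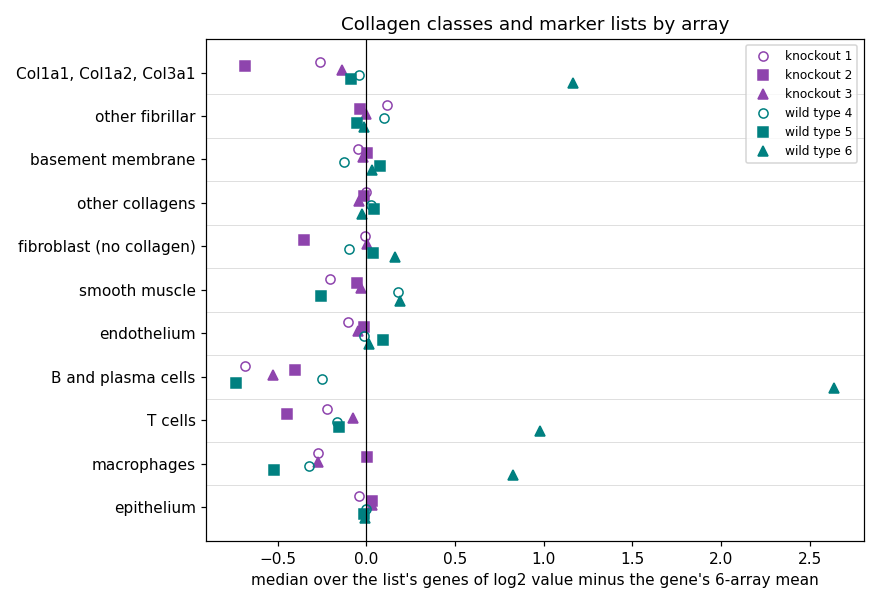
For each collagen class and marker list the points give the median, over its genes, of the log2 value minus the gene's mean over the 6 arrays, with 1 point per array. Wild type 6 stands apart for Col1a1, Col1a2 and Col3a1 (1.17), B and plasma cells (2.63), T cells (0.98) and macrophages (0.83), but not for the other collagen classes.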

How the data were processed

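The deposited log2 expression values were made by the authors with RMA (version not stated), per the submitters' processing notes. Their range, 1.78 to 14.4, shows the scale. RNA (30 ng) was amplified before hybridization, per the labels' protocols, which can read low transcripts unevenly. Arrays have no read depth, and their number, 3 per group, limits the precision. Of 45101 probe sets, 34958 had 1 gene symbol, 932 several and 9211 none listed. All 42 collagen symbols matched the RefSeq table of GRCm38.p6 by gene number. Each gene took its brightest probe set, with no filter. Knockout and wild type were compared with limma 3.58.1 in R 4.3.3 (lmFit, eBayes, two-sided, no covariate), adjusted by Benjamini-Hochberg over all genes or, for probe sets, over all probe sets, at 0.05. The fit was tested on simulated data. No set test was run.

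Per-array values are given for 16 listed collagens and for the 5 with the smallest unadjusted p in each class. Pathway genes named are up to 3 a list by unadjusted p. The members, classes and lists were chosen with earlier results of these data known. Alternatives covered scaling, dim genes, the probe set rule, the variance model, array weights and leaving out each array.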

Additional observations from a re-analysis of the deposited data

How the results depend on the processing

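No paired analysis was possible because the groups share no replicate number in the labels. No collagen gene was called under any alternative run (464 gene values under 12 settings, smallest limma adjusted p = 0.794). The count of members at an unadjusted p under 0.05 and lower in the knockouts, 1 as reported, was 2 when probe sets were averaged, 0 with array weights, and 0 to 2 when single arrays were left out. With only genes above the median gene, 2 members were left, with 0 at that level, 0 below 0 and a median of 0.29 for the other collagens. The median of the other collagens ran from -0.022 to 0.020 when single arrays were left out. The count of members lower without overlap, 3 as reported, was 9 without wild type 6, a setting chosen after seeing the data in which fewer arrays make separation easier. Col1a1, Col1a2, Col3a1 and Col16a1 were among 21 members that kept their sign in every setting that included them. Of these 4 genes, the setting with only genes above the median gene included Col16a1 alone. Of the 22 members whose sign held whenever a single array was left out, all 22 were moved by over 1.5 times by at least 1 array, so that the size of no member's difference is firm.

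The sign turned in 41 of the 464 gene values, in 21 genes, never beyond 0.13 in size, and the cause was not tested. With the mean of probe sets the turned values were -0.026 for Col4a4, 0.013 for Col5a1, 0.0082 for Col5a3, -0.0061 for Col27a1 and -0.049 for Col11a1. With cyclic loess they were 0.015 for Col2a1 and -0.021 for Col20a1, and with array weights -0.023 for Col11a1. Leaving out single arrays moved basement membrane genes from -0.24 to 0.028 for Col4a6, -0.19 to 0.0013 for Col4a2, -0.033 to 0.19 for Col4a3, -0.18 to 0.00031 for Col7a1, -0.094 to 0.00048 for Col4a5 and -0.12 to 0.19 for Col4a1. The same ranges for fibrillar genes were -0.19 to 0.021 for Col5a1, -0.19 to 0.012 for Col5a3, -0.055 to 0.15 for Col5a2, -0.083 to 0.037 for Col2a1, -0.099 to 0.12 for Col27a1 and -0.083 to 0.10 for Col11a1. Among the others they were -0.35 to 0.12 for Col6a2, -0.023 to 0.13 for Col6a5, -0.11 to 0.16 for Col12a1, -0.056 to 0.10 for Col9a1, -0.24 to 0.067 for Col25a1, -0.13 to 0.19 for Col10a1, -0.034 to 0.12 for Col8a2 and -0.12 to 0.20 for Col20a1.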
